A study of Mus musculus with 12 samples.

Results

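The cytosolic ribosomal protein genes were taken as the rows named Rpl or Rps followed by a number and at most a short suffix, with Rplp0, Rplp1, Rplp2 and Rpsa. Of the 35999 genes in the table, 89 met this rule on names alone: 53 encode or resemble proteins of the large ribosomal subunit and 36 of the small subunit. GENCODE M21 types 83 of them as protein coding and 6 as pseudogenes. They lay on 19 chromosomes, with 15 of them on chromosome 7. The rule itself used no measured value, but the members were chosen with earlier results of these data known.

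The cytosolic ribosome has a small subunit, which reads the mRNA, and a large subunit, which joins the amino acids. Each subunit carries its own set of proteins, made in near equal numbers from genes scattered over the genome, and most of their mRNAs start with a run of pyrimidines through which mTOR signalling and LARP1 adjust their translation. Blood formation is sensitive to ribosomal protein dosage: inherited loss of 1 copy of several of these genes causes Diamond-Blackfan anaemia, and free RPL5 and RPL11 bind MDM2 and raise p53.

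RNA was sequenced from LSK cells, the lineage-negative, Sca-1-positive, KIT-positive bone marrow fraction that holds haematopoietic stem cells and early progenitors, sorted from 6 wild-type (WT) and 6 Fancg KO (Fancg-/-) mice. Fancg encodes a subunit of the Fanconi anaemia core complex, which repairs DNA crosslinks, and the comparison addresses what its loss does to the transcriptome of these cells. Each library came from 1 mouse and the replicates are numbered 2 to 7 in both genotypes. Sex, age, strain background and any treatment of the mice are not given in the sources used here. In bulk RNA, fewer cells of a type and less RNA per cell cannot be told apart.

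The libraries were shallow, at about 1240000 to 2470000 reads each, estimated from the value that 1 read takes in each column (0.678 to 1.61 signal units). The signal of Fancg itself did not separate the labels, with 4.76, 8.59 and 24.1 as the lowest, median and highest WT library and 4.46, 7.91 and 14.5 in KO (exact permutation p = 0.636), so genotype below means the label of a library. The row named Lars2 took 15.6 to 19.0% of the signal in the 4 libraries numbered 2 and 3 and 24.7 to 36.2% in the 8 numbered 4 to 7, and the row named Olfr907 took 7.09 to 9.43% against 4.00 to 5.81%. The libraries numbered 2 and 3 thus stood apart in both genotypes. Those numbered 6 and 7 stood apart from 2 to 5 as well, with 1240000 to 1480000 reads against 2020000 to 2470000. The B cell marker Ebf1 had 22.6 to 41.0 in them against 82.0 to 288. The set numbered 4 to 7 used below is thus not uniform, and the labels name no batch for either split. Of the LSK markers, Kit ran from 283 to 435 and Ly6a, which encodes Sca-1, from 4.84 to 17.4 over the 12 libraries. Summed markers of other cells ran from 1.75 to 10.9 for T cells, 7.47 to 34.0 for erythroid cells, 38.2 to 299 for B cells, 15.8 to 87.3 for megakaryocytes and 406 to 2246 for granulocytes and monocytes, with WT and KO ranges overlapping in each list. The megakaryocyte sum had a median of 24.5 in WT and 42.7 in KO. Its 1 tested marker, the integrin gene Itga2b, had 11.79, 14.6 and 19.21 in the lowest, median and highest WT library and 19.19, 22.2 and 45.4 in KO, a log2 fold change of 0.72 (limma p = 0.00597, adjusted p = 0.99957, exact permutation p = 0.00433). Of 9 tested LSK markers, Flt3, a receptor of multipotent progenitors, had an unadjusted limma p under 0.05, with 363, 464 and 646 in WT and 178, 351 and 523 in KO, a log2 fold change of -0.51 (limma p = 0.0423, adjusted p = 0.99957, exact permutation p = 0.0628). Both genes are named because of these values. The defining genes Cd3e and Hba-a1 had medians of 0. The sum for stroma and endothelium ran from 17814 to 76167, nearly all of it on the row of Pecam1, while Cdh5 stayed at 0 to 1.04. The part of these cell types in the results below was not tested.

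Pyrimidine runs near the transcription start are shown first, since these genes are known for mRNAs that begin with one. A RefSeq transcription start (GRCm38.p6) was at hand for 64 of the 89 genes. A C followed by at least 7 more C or T bases, a run of 8 or more, lay on the sense strand within 50 bases of the start in 53 of the 64 (82.8%), against 8645 of 27025 genes with a RefSeq start (32.0%). On the opposite strand the shares were 20.3% and 34.4%. The 30-base windows below hold the longest run of C and T, beginning with C, of 8 genes whose values are described further on, with the run in capitals. They are Rpl22 (chr4:152325679-152325708, plus strand), Rpl9 (chr5:65391382-65391411, minus strand), Rpl15 (chr14:18270967-18270996, minus strand), Rps12 (chr10:23787181-23787210, minus strand), Rps27 (chr3:90213631-90213660, minus strand), Rps15 (chr10:80292447-80292476, plus strand), Rpl24 (chr16:55966227-55966256, plus strand) and Rpl7l1 (chr17:46782670-46782699, minus strand).
Rpl22: ccgtctgaCTCCTCCCTTTCCCgacagccg
Rpl9: cgaaagacgttCTCTCTTTgccccatctac
Rpl15: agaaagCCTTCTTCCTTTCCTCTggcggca
Rps12: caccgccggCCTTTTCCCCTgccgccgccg
Rps27: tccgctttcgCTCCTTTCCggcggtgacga
Rps15: cagcccgtaCTTCCTTTTCCgagtaaccgc
Rpl24: acctcaaacccaCTCCCCgccaatgctgta
Rpl7l1: gtcgaggcgggCCTCTCTaccccgcccggt
The run of Rpl15 was the longest of these at 17 bases, and those of Rpl24 (6 bases) and Rpl7l1 (7 bases) were below the length searched for. Counted from the first base of the RefSeq transcript as 0, the runs began at -39 in Rpl22, 31 in Rpl9, -4 in Rpl15, 8 in Rps12, -2 in Rps27, 25 in Rps15, -36 in Rpl24 and -32 in Rpl7l1. Those of Rpl22, Rpl24 and Rpl7l1 ended before the annotated start and those of Rpl9, Rps12 and Rps15 began after it, so the runs describe these windows and are not shown to be the first bases of the mRNAs.

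Most of the genes were abundant in LSK cells. Their summed signal was 33724, 37962 and 43223 in the lowest, median and highest WT library and 24705, 35528 and 42593 in KO. This was 1.32, 2.25 and 2.41% of all signal in WT and 1.10, 2.07 and 2.35% in KO, and the genotypes overlapped in both measures. The mean signal of the 81 genes that entered the test, those whose mean reached 10, ran from 33.9 for Rps27l to 1704 for Rpsa, the laminin receptor precursor that sits in the small subunit. Per kilobase of the principal transcript, their levels ran from 31.3 to 2407 with a median of 502 (479 for the large and 654 for the small subunit). Rpl32 (2407 per kb), Rps12 (1624) and Rps27 (1550) were highest. Rpl7l1 (31.3), Rps27l (68.0) and Rpl28 (174) were lowest. These levels depend on the length of the annotated transcript. For some genes it is long beside the coding part, as in Rps20 (3706 bases, 357 of them coding).

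**Figure D1:**
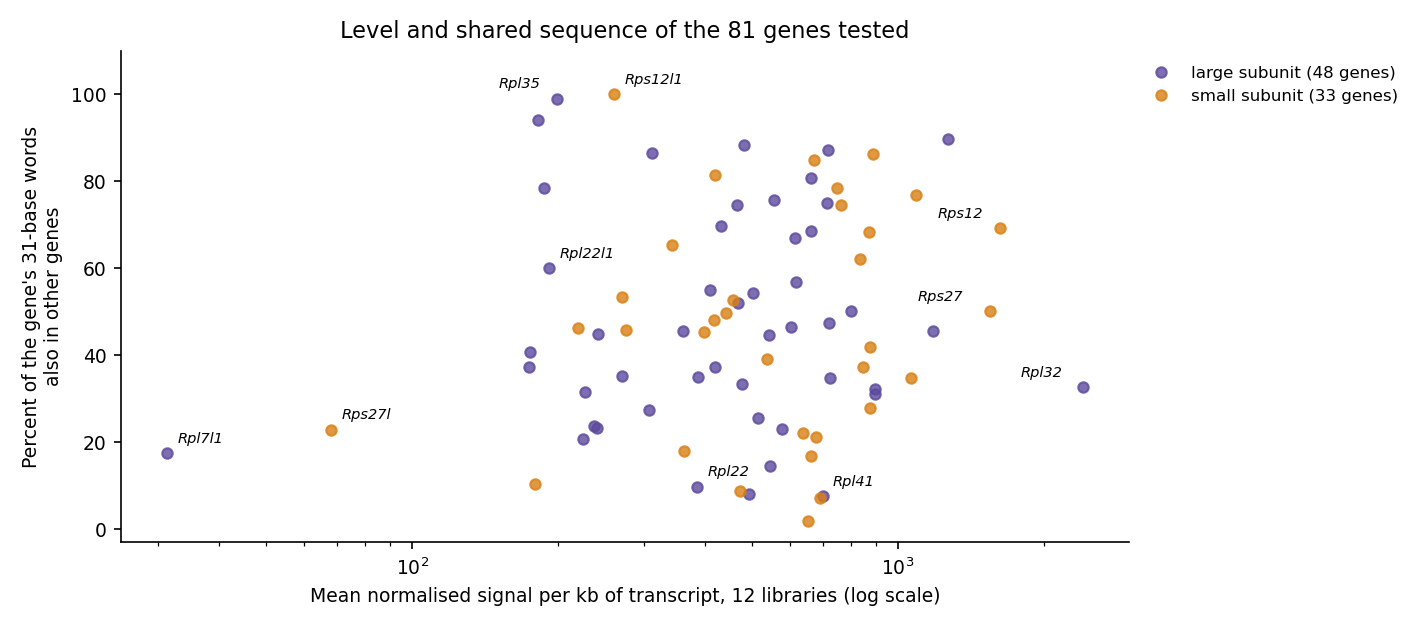
Mean normalised signal per kilobase of principal transcript over the 12 libraries (x axis, log scale) against the percent of a gene's 31-base words that also occur in other genes of the table (y axis), 1 point for each of the 81 genes tested, coloured by subunit. Levels span 31.3 to 2407 per kb, with Rpl7l1 and Rps27l apart at the low end, and shared sequence reaches 100% for Rps12l1.

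Retrotransposed copies of these genes are common in the mouse genome, and reads from a gene and its copy can be split between their rows. Of the 31-base words of the tested genes, a median of 45.5% also occurred in another gene, and 100% did in Rps12l1. Every word of Rps12l1, typed as a processed pseudogene (chr7:56014016-56014414), is also in Rps12 (chr10:23785183-23787275), so no stretch of that length is unique to Rps12l1. Rows with a -ps suffix held 3.60 to 6.52% as much signal as the 89 genes in the 12 libraries.

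Diverged paralogs of single ribosomal proteins were far lower than their parent genes, except for Rpl22l1. Rpl22l1, which can replace RPL22 in the ribosome, had 37.4, 45.9 and 69.3% of the per-kilobase level of Rpl22 in the lowest, median and highest WT library and 35.5, 49.8 and 73.9% in KO. Rps27l, a known p53 target, had 2.73, 4.71 and 5.25% of the level of Rps27 in WT and 2.75, 4.16 and 6.94% in KO. Rpl7l1, which functions in ribosome assembly, had 3.86, 5.50 and 6.24% of the level of Rpl7 in WT and 3.22, 4.62 and 7.50% in KO. The WT and KO ranges overlapped for all 3 pairs. Rpl3l, a striated muscle form of Rpl3, and Rpl10l, a testis form of Rpl10, were each listed at 0 in 10 of the 12 libraries, and Rpl39l, another testis form, in 9. Their highest library values were 2.16, 0.834 and 2.29, which is about 1 or 2 reads. Rps4l, typed as a pseudogene, was at 0 in 2 libraries and reached 8.60.

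The paralogs compared here differ enough in sequence for reads to be told apart within a pair. Rps4x and Rps4l were not compared. The coding sequences of Rps27 and Rps27l were 76.2% identical, those of Rpl39 and Rpl39l 85.0%, Rpl10 and Rpl10l 84.7%, Rpl3 and Rpl3l 73.2%, Rpl22 and Rpl22l1 66.9% and Rpl7 and Rpl7l1 53.0%. Of the 31-base words of the second gene, 0.966% were found in the first for Rpl39l and none for the other 5 pairs. Words can still be shared with rows outside the pair. For Rpl22l1, 60% also occurred in other genes and 57.5% in Gm15421, so its level depends on how such reads were divided. The first 90 coding bases of a pair detected in every library, Rps27 (chr3:90212522-90213651) and Rps27l (chr9:66946086-66949516), and of Rpl39 (chrX:37082520-37085402) and Rpl39l (chr16:10170226-10174911), the second at 0 in 9 libraries, are shown with differing bases in capitals, 24 in the first pair and 10 in the second. They come from GENCODE M21 transcripts (GRCm38).
Rps27: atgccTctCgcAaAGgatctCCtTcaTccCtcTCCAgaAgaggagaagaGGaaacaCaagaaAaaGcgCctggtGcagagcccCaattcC
Rps27l: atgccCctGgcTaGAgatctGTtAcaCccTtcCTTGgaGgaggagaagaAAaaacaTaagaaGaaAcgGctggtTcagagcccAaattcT
Rpl39: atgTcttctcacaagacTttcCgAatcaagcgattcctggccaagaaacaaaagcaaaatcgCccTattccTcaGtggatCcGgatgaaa
Rpl39l: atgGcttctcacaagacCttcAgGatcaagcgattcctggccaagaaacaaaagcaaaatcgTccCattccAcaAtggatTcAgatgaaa

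Between genotypes, 75 of the 81 tested genes had a lower mean log2 signal in KO than in WT, 45 of 48 in the large subunit and 30 of 33 in the small subunit, by amounts within the spread of the libraries. Of all 8887 genes tested, 49.3% were lower in KO, with 51.7% of those whose mean signal reached 50 and 56.2% of those whose mean reached 100. The median log2 fold change was -0.147, or 0.903-fold (-0.146 for the large and -0.151 for the small subunit), against 0.0031 over all genes. Over the 1451 genes whose mean signal reached 100, ribosomal protein genes included, it was -0.020. No ribosomal protein gene passed an adjusted p of 0.05 in limma (lowest 0.99957), as was so for all 8887 genes (0.0% called). At an unadjusted p under 0.05, 0 of the 81 were lower and 0 higher, against 1.69% and 1.98% of all genes (3.67% in either direction), and 0 of the 81 had an exact permutation p under 0.05, against 3.83%. In none of the 81 did the 6 WT and 6 KO libraries separate, which they did for 0.09% of all genes.

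The standard errors, 0.128 to 0.360 on the log2 scale with a median of 0.180, set what could be seen. In this fit, which leaves out the replicate number, all 81 of the 95% intervals held 0, and 49 also held a change of -0.5. For 80 of the 81 the interval lay above -1, so a drop to 0.5-fold lay outside it, Rps12l1 being the exception. The ratio of summed large to small subunit signal was 1.20, 1.24 and 1.26 in the lowest, median and highest WT library and 1.18, 1.20 and 1.29 in KO, so the subunits kept nearly the same proportion in all 12 libraries.

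The size of the difference moved with single libraries, while the median stayed below 0 with each library left out in turn. Without KO replicate 2 the median log2 fold change was -0.053 and 62 of the 81 genes were lower in KO. Without KO replicate 7 it was -0.21 and 79 were lower. With WT replicate 6 left out it was -0.094 and 69 were lower. Of all 8887 genes, 4271, 4560 and 4191 were lower in these fits, in the same order, with medians of 0.011, -0.0076 and 0.016. With replicates 4 to 7 alone the median of the 81 was -0.068 with 58 of 81 lower, against 45.2% of all genes. With replicates 2 and 3 alone it was -0.356 with 80 of 81 lower, against 54.5%. The share of signal on the 89 genes was 0.102 percentage points lower in KO on average. The KO minus WT difference was 0.056 without KO replicate 2, -0.237 without WT replicate 2 and -0.231 without WT replicate 3, and it lay between these values without each of the other libraries.

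**Figure D2:**
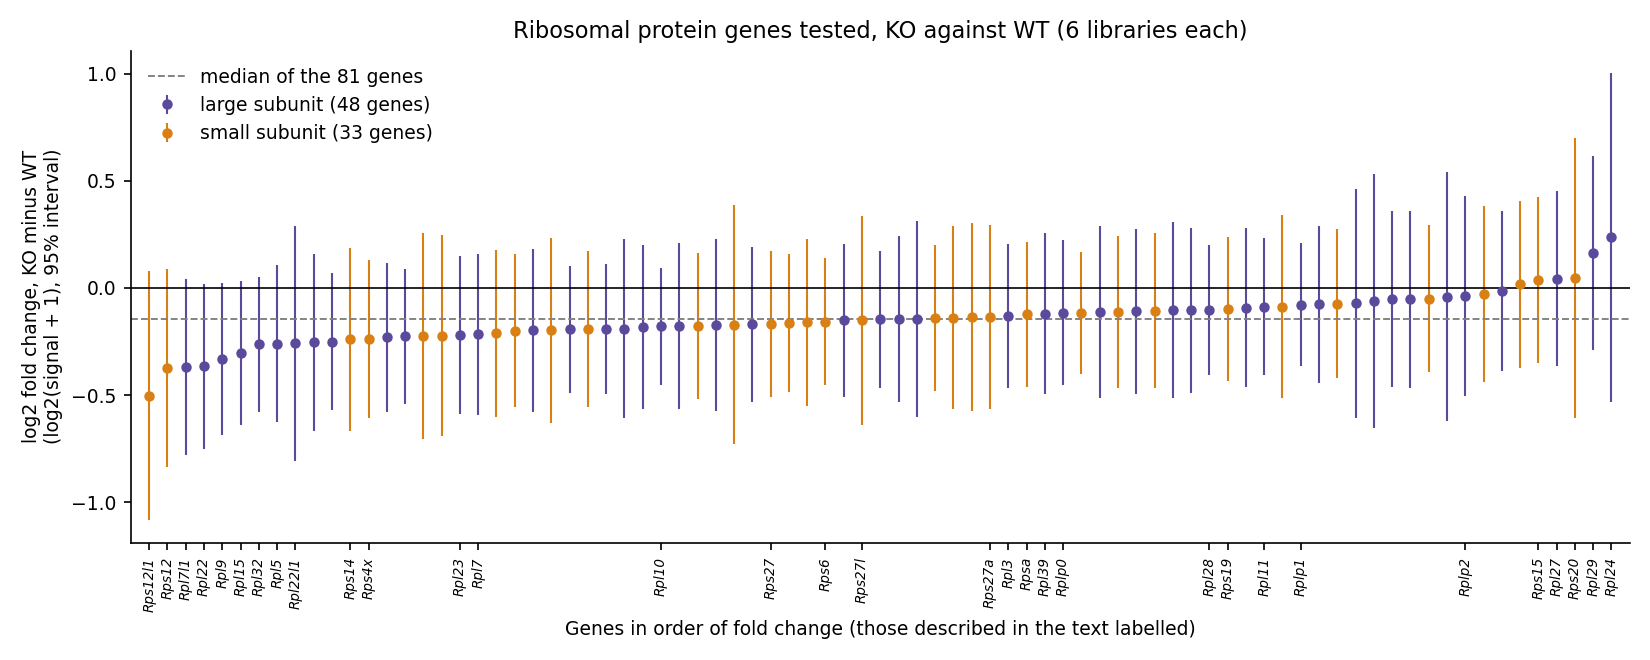
The log2 fold change of KO against WT (y axis, on the log2(signal + 1) scale) for the 81 genes tested, ordered from lowest to highest and coloured by subunit, with the genes described in the text labelled and 95% intervals from limma (6 libraries each). Points run from -0.50 (Rps12l1) to 0.24 (Rpl24), 75 lie below 0, and every interval crosses 0.

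The levels also differed by replicate number, within both genotypes. Summed over the 89 genes, libraries 2 and 3 had 35337 and 33724 in WT and 24705 and 29105 in KO. Libraries 4, 5, 6 and 7 had 40485, 37324, 43223 and 38600 in WT and 40955, 34019, 37037 and 42593 in KO. Both KO libraries numbered 2 and 3 lay below all 10 others, and both WT ones lay below every WT library numbered 4 to 7. The share of signal was 1.10 to 1.61% in the 4 libraries numbered 2 and 3 and 2.02 to 2.41% in the other 8, with no overlap. These are the libraries with less signal on Lars2 and more on Olfr907. Whether the 3 are linked was not tested.

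Gene by gene, 76 of the 81 tested genes had their lowest library among replicates 2 and 3, 61 of them in KO 2 and 13 in KO 3. The highest library was among replicates 4 to 7 for 79 genes, most often WT 6 (35 genes), KO 7 (19) and KO 4 (13). The mean was lower in replicates 2 and 3 than in 4 to 7 within both genotypes for 70 of the 81, against 35.7% of all tested genes, and in neither genotype for 0. The median log2 difference between these sets was -0.26 in WT and -0.55 in KO.

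**Figure D3:**
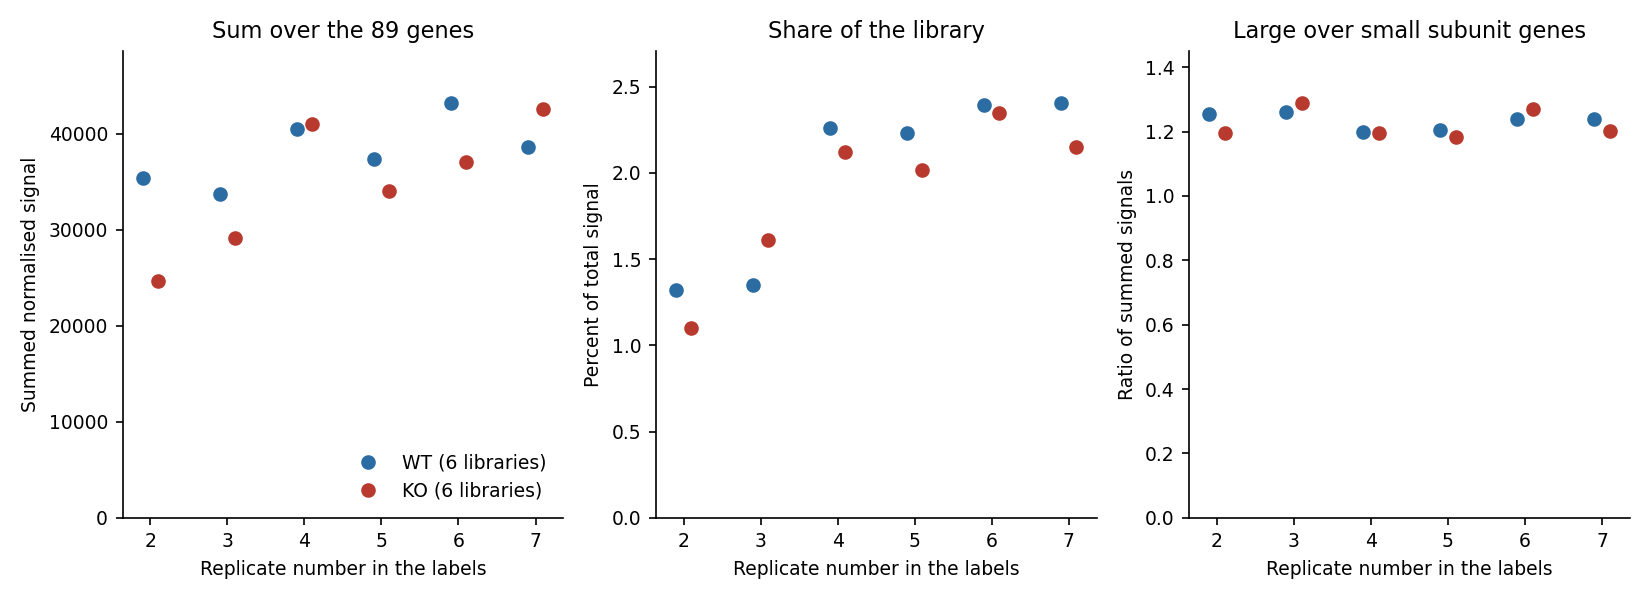
Summed normalised signal of the 89 genes (left), their percent of all signal (middle) and the ratio of summed large to small subunit signal (right) in each library, by the replicate number in the labels (x axis), with 6 WT and 6 KO libraries as points. The share is 1.10 to 1.61% in replicates 2 and 3 of both genotypes and 2.02 to 2.41% in replicates 4 to 7, while the ratio stays between 1.18 and 1.29.

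Set side by side by number, the KO library was lower for 80 of 81 genes in replicate 2 (median log2 difference -0.48), 66 in replicate 3 (-0.22), 43 in replicate 4 (-0.034), 62 in replicate 5 (-0.12), 70 in replicate 6 (-0.19) and 20 in replicate 7 (0.13). The median over all genes was -0.049, -0.035, 0.054, 0.0098, -0.059 and 0.092 in the same order. The sources do not say that same-numbered libraries share a litter, batch or day. In replicate 7 the KO library was the higher one for most genes, and in replicate 4 the pair was nearly level. Rpl15, Rpl22, Rpl9 and Rps24 were among the genes lower in the KO library for all 6 numbers.

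**Figure D4:**
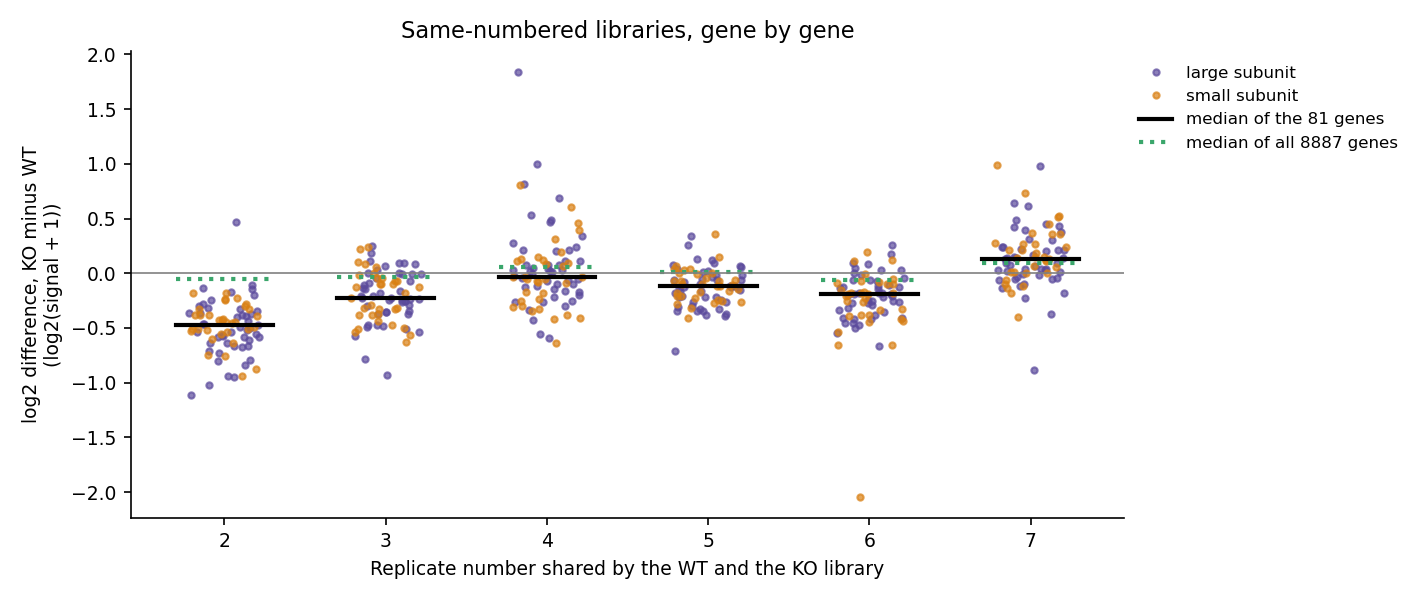
Difference in log2(signal + 1) between the KO and the WT library of each replicate number (x axis), 1 point for each of the 81 genes, coloured by subunit, with the median of these genes (black) and of all 8887 genes (dotted). The median of the 81 runs from -0.48 in replicate 2 to 0.13 in replicate 7.

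The levels of the genes varied together across libraries. Pearson's r between 2 members over the 12 libraries had a median of 0.690 over 3240 pairs, 3142 of them above 0, as a description, since all share the same libraries and size factors. With the mean of the other tested members, r had a median of 0.857 and was over 0.5 for 71 of 81. Rps7 (0.983), Rplp0 (0.982) and Rps16 (0.974) were most like the rest. Rps20 (-0.032), Rps12 (0.166) and Rpl7l1 (0.354) were least like it. Rps20 was highest in KO 4 (1243) and lowest in KO 6 (282), a 4.41-fold range. Rps12 had the same highest and lowest libraries, at 1134 and 431. The spread between the highest and lowest library was 1.53-fold (Rplp1) to 4.45-fold (Rpl24) with a median of 2.10-fold, and the median SD of log2 signal was 0.237 over the WT and 0.370 over the KO libraries.

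The 5 genes with the smallest limma p among those lower in KO were Rpl22, Rpl9, Rpl15, Rpl7l1 and Rps12l1. Rpl22 (chr4:152325742-152334071), whose loss impairs lymphocyte development, had 161, 199 and 280 as its lowest, median and highest WT signal and 117, 152 and 213 in KO. The ranges overlapped, with WT 6 highest and KO 2 lowest. Its log2 fold change was -0.36 (SE 0.181, limma adjusted p = 0.99957, exact permutation p = 0.0866). Its paralog Rpl22l1 had 74.0, 121 and 133 in WT and 48.5, 100.1 and 143 in KO, a log2 fold change of -0.26 (SE 0.258), so the pair leaned the same way within error.

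Rpl9 (chr5:65388364-65391444), a protein near the base of the large subunit stalk, had 350, 437 and 524 in WT and 234, 340 and 447 in KO, a log2 fold change of -0.33 (SE 0.167, exact permutation p = 0.0628). Rpl15 (chr14:18267823-18271391), a Diamond-Blackfan anaemia gene, had 244, 261 and 321 in WT and 147, 220 and 292 in KO, a log2 fold change of -0.30 (SE 0.158, exact permutation p = 0.0649). For both genes the ranges overlapped, and WT 6 was the highest library. Rpl7l1 (chr17:46773907-46782672) had 36.4, 42.5 and 56.8 in WT and 24.0, 34.3 and 54.4 in KO, a log2 fold change of -0.37 (SE 0.192, exact permutation p = 0.0758). Rps12l1 had 76.0, 109 and 187 in WT and 44.7, 94.6 and 122 in KO, a log2 fold change of -0.50 (SE 0.273, exact permutation p = 0.141). The KO 5 library of Rpl7l1, at 54.4, stood with the highest WT libraries.

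**Figure D5:**
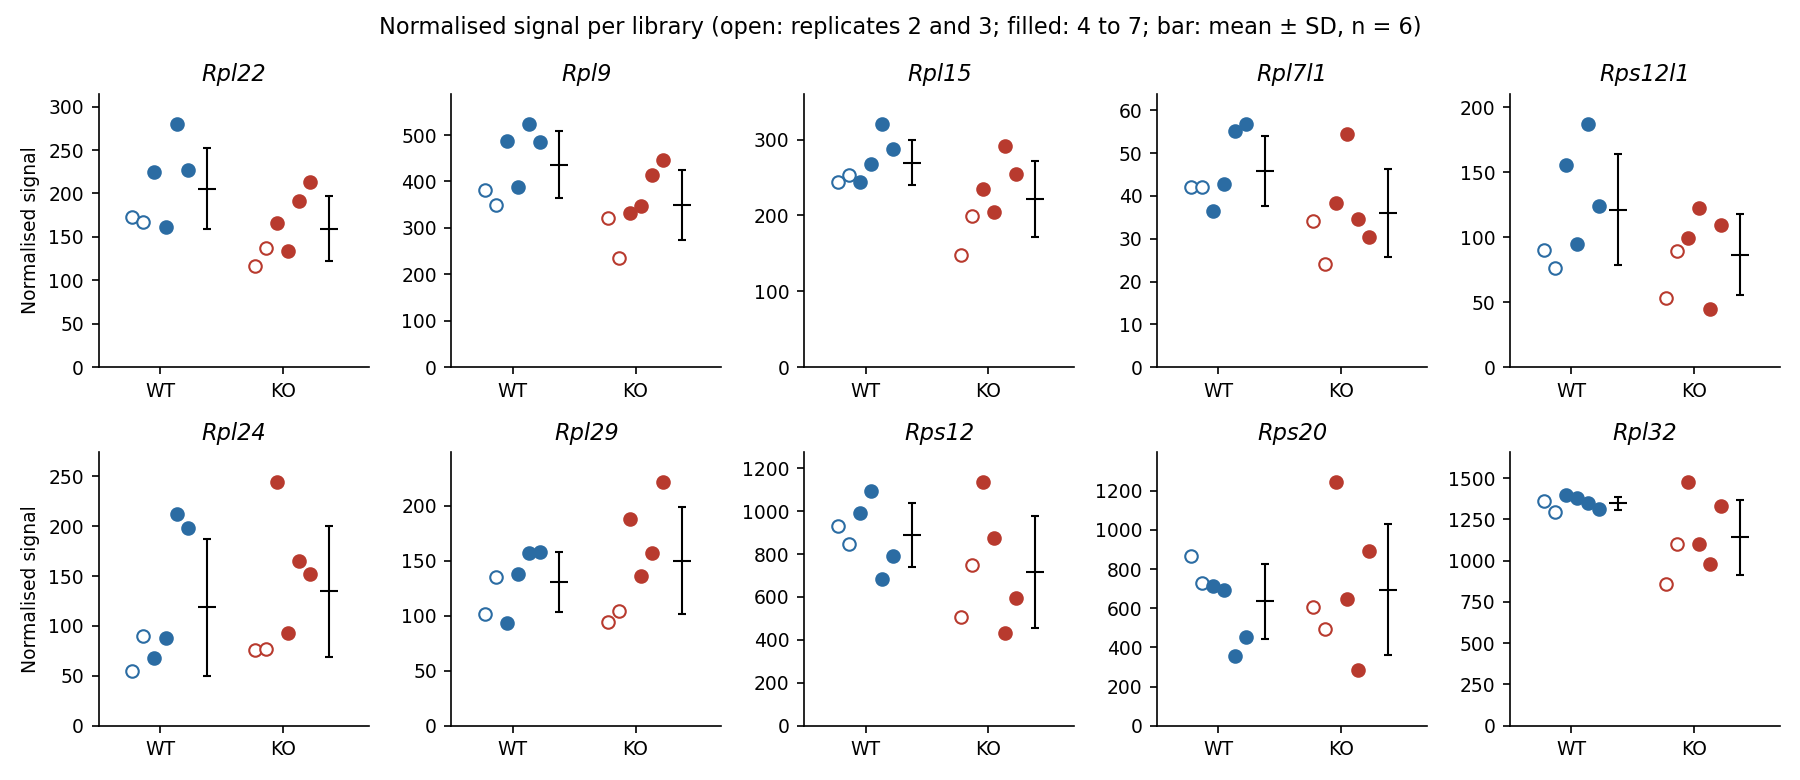
Normalised signal (y axis, from 0) of 10 genes in each of the 6 WT and 6 KO libraries, open points for replicates 2 and 3 and filled points for 4 to 7, with the mean and SD (n = 6) beside them. The genotypes overlap in every panel. In Rpl32 the WT libraries lie between 1292 and 1396 while those of KO spread from 857 to 1474.

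The 6 genes that were not lower in KO were Rpl24, Rpl29, Rps20, Rpl27, Rps15 and Rps29. Rpl24 (chr16:55966275-55971435), which bridges the subunits, had 54.9, 89.2 and 212 in WT and 76.0, 123 and 244 in KO, a log2 fold change of 0.24 (SE 0.360, exact permutation p = 0.589). WT 6 and WT 7, at 212 and 198, stood far above the other WT libraries, and in KO it was KO 4 at 244. Rpl29 had 93.8, 137 and 158 in WT and 94.3, 147 and 221 in KO, a log2 fold change of 0.16 (SE 0.213), which became -0.042 when pseudogene rows were added to it. The other 4 lay at 0.02 to 0.05, well inside their standard errors of 0.183 to 0.307.

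RPL5 and RPL11, which form the 5S RNA particle and bind MDM2, and RPL23, another MDM2 binder, tie ribosome assembly to p53. Rpl5 had 590, 701 and 764 in WT and 409, 565 and 865 in KO, a log2 fold change of -0.26 (SE 0.172, exact permutation p = 0.160). Rpl23 had 350, 444 and 528 in WT and 246, 392 and 479 in KO, a log2 fold change of -0.22 (SE 0.174). Rpl11 had 307, 341 and 424 in WT and 242, 330 and 416 in KO, a log2 fold change of -0.088 (SE 0.151). The ranges overlapped for all 3 genes, and the 95% interval of Rpl11, from -0.41 to 0.23, held the estimates of the other two.

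The stalk of the large subunit, built of RPLP0, RPLP1 and RPLP2, recruits elongation factors. Rplp0 had 657, 737 and 911 in WT and 517, 732 and 866 in KO. Rplp1 had 336, 356 and 417 in WT and 273, 369 and 397 in KO. Their log2 fold changes were -0.12 (SE 0.159) and -0.079 (SE 0.135), and that of Rplp2 was -0.038 (SE 0.219). Rplp1 was the least variable gene of the set, and its KO median was the higher one. With replicates 4 to 7 alone Rplp1 and Rplp2 were at 0.052 and 0.036.

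In the small subunit, Rpsa (chr9:120127689-120132369), the most abundant row, had 1617, 1700 and 2024 in WT and 1296, 1632 and 2181 in KO, a log2 fold change of -0.12 (SE 0.159). Rps6, the substrate of S6 kinase, had 538, 588 and 782 in WT and 464, 559 and 658 in KO, a log2 fold change of -0.16 (SE 0.139). Rps14, the gene lost in 5q- syndrome, had 309, 406 and 521 in WT and 240, 322 and 548 in KO, a log2 fold change of -0.24 (SE 0.202). The ranges of all 3 overlapped, and for Rps14 and Rpsa the highest library was a KO one. Rps19, the gene most often mutated in Diamond-Blackfan anaemia, had 208, 233 and 271 in WT and 155, 215 and 312 in KO, a log2 fold change of -0.097 (SE 0.158) that was 0.0017 without KO replicate 2. Rps27a, made as a fusion with ubiquitin, had 158, 217 and 329 in WT and 134, 199 and 271 in KO, a log2 fold change of -0.13 (SE 0.202).

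The 3 genes with the highest level per kilobase were not the steadiest. Rpl32 (chr6:115805505-115808747) had 1292, 1354 and 1396 in WT and 857, 1102 and 1474 in KO, a log2 fold change of -0.26 (SE 0.149), and the lowest exact permutation p of the set, 0.0519. Its WT libraries were tightly grouped, and 4 of the 6 KO libraries lay below all of them. Rps12 had 682, 889 and 1092 in WT and 431, 673 and 1134 in KO, a log2 fold change of -0.37 (SE 0.216). Rps27 had 472, 535 and 722 in WT and 344, 519 and 594 in KO, a log2 fold change of -0.17 (SE 0.160). At the low end, Rps27l was at -0.15 (SE 0.229) and Rpl28 at -0.10 (SE 0.143).

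Of the 50 tested genes with a pyrimidine run, 48 were lower in KO with a median log2 fold change of -0.16, and of the 10 with a start but no such run, 9 were lower with a median of -0.15. Of the 21 with no RefSeq start at hand, 18 were lower with a median of -0.11. Differences between these sets were not tested. Of the 18 genes that share under 25% of their 31-base words, 17 were lower with a median of -0.14. With the rows of 298 pseudogenes added to 69 genes by shared sequence, 76 of 81 were lower with a median of -0.14.

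The 20 Diamond-Blackfan anaemia genes among the members were all tested. Of these, 18 were lower and 2 higher in KO with a median of -0.13, where 49.3% of all genes tested were lower. An unadjusted limma p under 0.05 was reached by 0 of the 20, against 1.69% of all genes lower and 1.98% higher. Of the 4 listed ribosomal proteins whose names fall outside the rule, among them Fau, Rack1 and Rpl36al, all 4 were lower with a median of -0.069. Only Fau, which encodes the small subunit protein RPS30 fused to a ubiquitin-like domain, had an unadjusted p under 0.05, and it is described because of that value. It had 140, 174 and 196 in WT and 106, 112 and 152 in KO, a log2 fold change of -0.50 (SE 0.141, limma p = 0.0029, adjusted p = 0.99957, exact permutation p = 0.0065), and the ranges overlapped.

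Of the other translation genes, 0 passed an adjusted p of 0.05 in limma. Of 35 initiation factor genes, 23 were lower and 12 higher in KO with a median of -0.056, and 1 had an unadjusted p under 0.05, against 3.67% of all genes in either direction. Their log2 fold changes ran from -0.36 to 0.36, the highest being Eif2b5, a subunit of the guanine nucleotide exchange factor of eIF2. The 1 gene with an unadjusted p under 0.05 was Eif4g2, the lowest of the 35. It encodes an initiation factor that does not bind the cap-binding protein. Its signal was 1855, 2225 and 2434 in WT and 1322, 1640 and 2362 in KO. The log2 fold change was -0.36 (SE 0.165, limma p = 0.0442, exact permutation p = 0.0281). Of 8 genes listed for elongation, among them Eef2k and Eef1e1, 5 were lower and 3 higher with a median of -0.045. Of 3 termination and recycling genes, 1 was lower and 2 higher (median 0.0064). Of 9 other mRNAs known to carry a 5′ pyrimidine tract, such as Tpt1 and Npm1, 4 were lower and 5 higher (median 0.0055). Of 10 genes listed as regulators, among them Mtor, Larp1, Larp4, Larp7 and the S6 kinases, 9 were tested. In this list 3 were lower and 6 higher (median 0.034), from -0.15 for Mtor to 0.33 for Rptor, which encodes the partner of mTOR in mTORC1. At an unadjusted p under 0.05 the last 4 lists held 0 genes in either direction.

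The 8 genes below the filter were Rpl10l, Rpl32l, Rpl39l, Rpl3l, Rpl6l, Rps3a2, Rps3a3 and Rps4l. Of these, 5 carry a pseudogene type in GENCODE and the others are the tissue-restricted paralogs. Of the 8, 7 were at 0 in at least 1 library. Rps3a2 was the most variable, at 0, 10.4 and 26.1 in WT and 0, 0.891 and 10.2 in KO (exact permutation p = 0.188), and it shares 92.9% of its 31-base words with other genes. Rps3a3, detected in all 12 libraries, had 2.78, 6.72 and 10.8 in WT and 4.19, 4.66 and 7.56 in KO.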

How the data were processed

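RNA-seq libraries of LSK cells from 6 WT and 6 Fancg KO mice were analysed, 1 library per mouse and 1 column per library, with 0 value columns left unused. Per the labels the libraries were made with the CATS kit and quantified with Kallisto. The values the authors deposited are a normalised signal for each gene and library. From their name and their steps they were taken as Kallisto's estimated counts after division by a size factor of each library. The mouse genome build and annotation used upstream are not given in the sources used here. Reads shared with near-identical copies are divided by Kallisto's model, so a signal depends on that division.

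The 8887 genes whose mean signal reached 10 were tested on log2(signal + 1), with which a fold change of a low gene is understated, with limma 3.58.1 in R 4.3.3 (two-sided, with an intensity trend in the empirical Bayes step, and p-values adjusted over these genes by Benjamini-Hochberg), in place of the Sleuth package that the study names, which cannot be run on this table. The test was run on simulated data first. Single values were compared with a two-sided exact permutation test over the 924 divisions of the libraries, whose smallest possible p is 0.0022. No test was made over the genes as a group. The median is given beside that of all genes. Intervals are 95%.

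The named genes were the paralog pairs and genes of known role (5S particle and MDM2 binders, stalk, Rpsa, Rps6, Rps14, Rps19, Rps27a), the 5 with the smallest limma p in each direction, any with an unadjusted p under 0.05 and a log2 change beyond 0.5, and the 3 highest and 3 lowest per kilobase. Members and lists were chosen with earlier results of these data known. The division of replicates 2 and 3 from 4 to 7 and the addition of pseudogene rows by sequence (at least 50% of a pseudogene's 31-base words in the member) were chosen after seeing the data. Annotation, transcript lengths (the shortest principal transcript) and coding sequence came from GENCODE M21 (GRCm38), and starts from RefSeq (GRCm38.p6), matched by symbol. Alternatives were other pseudocounts, filters, scalings, trend, replicate block, pseudogene rows and left-out libraries. Results on some genes are not reported here. Total signal was 1576081 to 2672915 per library.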

Additional observations from a re-analysis of the deposited data

Results flagged for a closer look

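A pair of signals stood apart from the other 5 libraries of their genotype by Dixon's criterion. Rpl10, a large subunit protein close to the peptidyl transferase site, had 565 in WT 3 against 434 to 481 in the other WT libraries. Rpl27 had 154 in WT 6 against 84.7 to 107.9 in the others. The criterion was applied to 70 groups of 6 libraries, where chance gives about 3.5 such values.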

How the results depend on the processing

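The count of genes past an adjusted p of 0.05 was 0 under every alternative run, and the count at an unadjusted p under 0.05 and higher in KO was 0 as well. The count at an unadjusted p under 0.05 and lower in KO was 0 as reported. It was 2 with median-of-ratios scaling (1.91% of all genes), 2 with quantile normalization (1.9%) and 5 without WT replicate 3 and KO replicate 7 (2.52%). It was 11 with replicates 2 and 3 alone (2.49%), and 0 to 3 with each library left out in turn (1.38 to 1.96%). With a replicate block it was 5 (Rpl22, Rpl9, Rpl15, Rps12 and Rps4x, against 2.57% of all genes, lowest limma adjusted p 0.889). Same-numbered libraries correlated at 0.086 to 0.36 in their deviations from the genotype means, 4 of 6 numbers over 0.1. Of the 12 libraries, 9 correlated best with their own number, but not KO 4, WT 7 or KO 7. This is a hint from the data, and not from the labels, that same-numbered libraries share something. What they share was not tested. The median log2 fold change ran from -0.21 to -0.053 with each library left out (large subunit -0.21 to -0.053, small -0.21 to -0.062). Over these fits 62 to 79 of the 81 were lower, against 4112 to 4563 of all 8887 genes. With libraries scaled to equal totals the median was -0.066 (63 of 81 lower, all-gene median 0.082). Some near-0 values changed sign. Scaled to equal totals, Rplp1 was at 0.0026 and Rplp2 at 0.043, and at 0.018 for Rplp2 with Lars2 removed first. With each library left out, Rpl27 ran from -0.025 to 0.16, Rplp2 from -0.18 to 0.070, Rps15 from -0.092 to 0.12, Rps19 from -0.20 to 0.0017 and Rps20 from -0.15 to 0.28. Without WT replicate 3 and KO replicate 7, Rpl27 was at -0.042, Rplp2 at -0.19, Rps15 at -0.089 and Rps20 at -0.0035. With pseudogene rows matched by sequence Rpl29 was at -0.042. With replicates 2 and 3 alone, Rpl29 was at -0.24, Rpl27 at -0.25, Rps15 at -0.30 and Rps20 at -0.54. With replicates 4 to 7 alone, Rplp1 was at 0.052, Rplp2 at 0.036 and Rpl28 at 0.029. The causes were not tested. At this depth, genes of a few reads, such as Rpl39l, could not be compared.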
